A study of Mus musculus with 12 samples.

Results

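Splicing and RNA-binding factors were taken as the genes whose annotated symbol begins with Hnrnp, Srsf, Snrp, Sf3, U2af, Prpf, Sfpq, Pabp or Rbm, or with Ddx or Dhx followed by a digit, and which a probe set names alone. This gave 93 of the 5599 genes on the array, with 117 of the 6551 probe sets that name 1 gene. Of the 93 genes, 57 had a probe set bright enough to be tested, among 3477 genes tested in all. Signal was measured in 12 samples of mouse skin, 1 Affymetrix array each from total RNA, with 3 samples from each time after a thermal injury: 0 hours, 2 hours, 3 days and 14 days. No group carried a mutation or drug that the labels name. The strain, sex and age of the animals, the way the burn was made, and whether the 0 hours skin had been burnt before it was excised are not stated in the sources used here. Nothing in the labels says that the 3 samples of a time point came from separate animals, so p-values take in only how these samples vary among themselves, which may be technical.

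Messenger RNA precursors are bound by hnRNP proteins as they are made, and SR proteins (the Srsf genes) mark exons by binding to enhancer sequences in them. The spliceosome, built from the small nuclear ribonucleoproteins together with the Sf3, U2af and Prpf proteins, then removes the introns, while DEAD-box and DEAH-box helicases (Ddx and Dhx) remodel RNA and RNA-protein complexes from transcription to translation. Poly(A)-binding proteins hold the tail of the finished message, and in healing skin alternative splicing is well known from fibronectin, whose extra domains are included in wounds. A probe set on these arrays reports the level of a transcript and not how it was spliced.

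Levels are given below as the deposited linear intensity of a probe set, called signal, and no probe set's level is set against another's. For the tests, signals under the pooled 25th percentile (225) were raised to it as a floor, and a gene was tested when its probe set exceeded the pooled median (476) on at least 3 arrays. Time points were compared on the log2 scale with limma over all 12 arrays, and a gene is said to have risen or fallen where the p-value, adjusted by Benjamini-Hochberg over the 3477 genes, was under 0.05. An exact permutation test of 3 arrays against 3 cannot go below p = 0.1, so these calls lean on the variance that limma shares between genes. Of the genes called below, Hnrnpll, Sf3a3, Sf3b1, Rbmxl1 and Sfpq had no array of 0 hours above the filter and entered the tests only through the later groups where they were high. With no filter their calls held, other than that of Hnrnpll at 14 days (limma adjusted p = 0.089). Some calls of other genes did not. Without the filter each call of Ddx3x and Rbms1 was lost (limma adjusted p 0.073 to 0.147). So were those of Hnrnpl at 3 days, Snrpg at 14 days and Ddx50 at 3 days against 2 hours (0.0632 to 0.102).

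The stretches of 250 bases before the annotated transcription start of 3 of the genes are shown because Hnrnpl had the largest fall and Ddx3x and Sfpq are among the 3 genes that rose at every later time point. They are from RefSeq on GRCm38.p6, all on the forward strand, at chr7:28810640-28810889 for Hnrnpl, chr4:127021051-127021300 for Sfpq and chrX:13280772-13281021 for Ddx3x, and are written 5′ to 3′. Capitals mark GAANNTTC, the core pair of heat shock element repeats, and CCAAT on either strand, the motif of the CCAAT box, which overlap each other in the palindrome of the Sfpq sequence.
Hnrnpl: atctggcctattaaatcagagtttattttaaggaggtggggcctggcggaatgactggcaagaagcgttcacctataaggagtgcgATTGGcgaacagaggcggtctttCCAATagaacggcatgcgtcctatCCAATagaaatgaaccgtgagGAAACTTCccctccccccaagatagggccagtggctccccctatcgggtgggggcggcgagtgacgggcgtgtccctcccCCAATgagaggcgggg
Sfpq: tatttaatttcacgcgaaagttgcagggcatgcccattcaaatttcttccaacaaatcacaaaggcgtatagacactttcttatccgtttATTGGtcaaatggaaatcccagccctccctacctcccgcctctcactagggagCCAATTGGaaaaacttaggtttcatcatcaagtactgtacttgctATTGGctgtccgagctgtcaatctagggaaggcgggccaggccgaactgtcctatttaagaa
Ddx3x: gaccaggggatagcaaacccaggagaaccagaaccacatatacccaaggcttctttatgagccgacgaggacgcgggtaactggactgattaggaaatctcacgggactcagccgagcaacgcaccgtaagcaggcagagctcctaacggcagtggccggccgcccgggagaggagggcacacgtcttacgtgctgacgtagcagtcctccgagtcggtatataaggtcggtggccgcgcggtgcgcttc
The Hnrnpl sequence holds 1 GAANNTTC and 4 CCAAT matches, the Sfpq sequence 4 CCAAT matches, and the Ddx3x sequence none of either. Over all 32851 windows of this length, 6.694% held GAANNTTC, 33.85% held CCAAT and 12.37% held TATAAA on either strand. Of the 15 genes called in any test below, 13 had a window (16 windows in all). GAANNTTC was found in 2 of the 16 windows, for Hnrnpl and Srsf9. CCAAT was found in 7 of the 16, for Ddx50, Hnrnpab, Hnrnpk, Hnrnpl, Rbmxl1, Sfpq and Snrpg, and TATAAA in 1, for Ddx50. A match describes these letters only, and binding was not measured.

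Most changes of the members against 0 hours were upward. At 2 hours against 0 hours, 6 of 57 members rose (10.5%), where 4% of all genes tested rose, and 1 member fell (1.75%, against 1.67% of all genes). The median member changed by 0.30 on the log2 scale, against 0.05 for all genes. Of the 57 changes 43 were above 0, and of those of all 3477 genes 1898. At 3 days against 0 hours, 8 members rose (14%, against 8.89% of all genes) and 1 fell (1.75%, against 4.4%), with a median change of 0.11, against 0.02 for all genes. Changes above 0 numbered 36 of 57, and 1800 of 3477 over all genes. At 14 days against 0 hours, 9 members rose (15.8%, against 6.9%) and none fell, where 3.25% of all genes fell. At an unadjusted p under 0.05 in limma, 15 members were then higher (26.3%, against 16.9% of all genes) and 2 lower (3.51%, against 11.1%). The median member changed by 0.23, against 0.05 for all genes, and 45 of the 57 changes were above 0 (1942 of 3477 over all genes). These comparisons all use the same 3 arrays of 0 hours. Among the rises are those of Hnrnpll, Sf3a3, Sf3b1, Rbmxl1 and Sfpq, which entered the tests only through later groups. Ddx3x, Rbmxl1 and Sfpq were the 3 members that rose in all of them, and 13 members were called in at least 1. The like shares over all genes are not given here, so these counts are not set against a background.

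**Figure D1:**
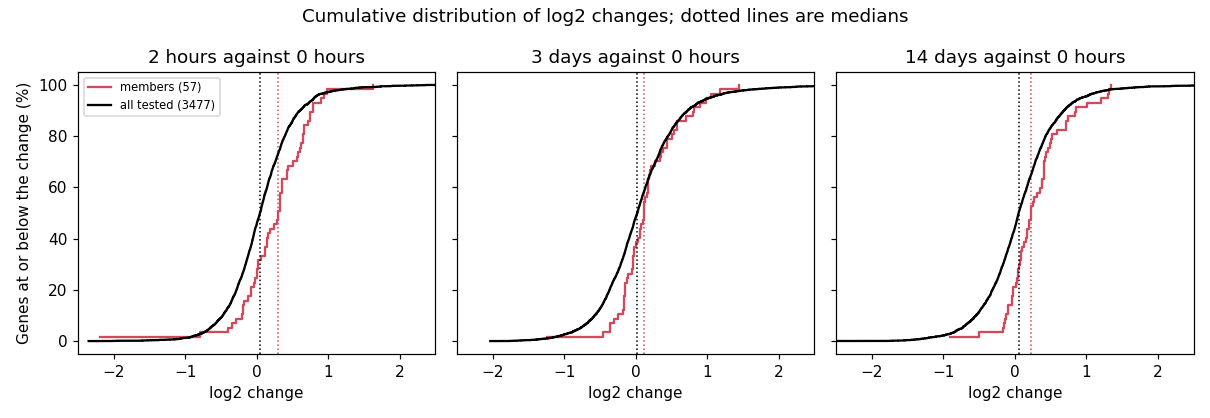
Cumulative share of genes (y axis, percent) at or below each log2 change (x axis) at 2 hours, 3 days and 14 days against 0 hours, for the 57 members (red) and all 3477 genes tested (black). Changes beyond the ends of the axis are not drawn. Dotted lines are the medians, which for the members are 0.30, 0.11 and 0.23 and for all genes 0.05, 0.02 and 0.05.

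Few members were called between later time points. At 3 days against 2 hours no member rose, where 6.1% of all genes rose, and 1 fell (1.75%, against 3.31%). Still, 40 of the 57 changes were below 0 (1874 of 3477 over all genes), and the median was -0.12, against -0.03 for all genes. At an unadjusted p under 0.05 in limma, 4 members were higher (7.02%, against 12.9% of all genes) and 6 lower (10.5%, against 12.4%), so neither share was above the background. At 14 days against 3 days no member was called by limma, where 1.29% of all genes rose and 2.1% fell. At an unadjusted p under 0.05, 2 members were higher (3.51%, against 4.57%) and none lower (against 7.16%) in that comparison, and the median change was 0.17, against 0.05. An F-test over the 4 time points called 12 of the 57 members (21.1%) where it called 21.2% of all genes, so by this test their share was that of the background.

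A single array touches much of this. Relative to its own mean over the 12 arrays, the median member stood at -0.23, 0.02 and -0.34 (log2) on the 3 arrays of 0 hours, and between -0.03 and 0.16 on the 9 later arrays. For all genes the like values were -0.05, 0.05 and -0.14, and between -0.03 and 0.04 on the later arrays. The lowest of 12 signals fell on 0 hours replicate 3 for 21 members and on 0 hours replicate 1 for 12, with the like counts over all genes not given here. Of the 12 arrays, 0 hours replicate 3 also had the lowest mean Spearman correlation with the others (0.851). Its log2 ratio of the 3′ to the 5′ Gapdh control probe set was the highest (2.28). Without 0 hours replicate 3 the median member changed by 0.20, -0.01 and 0.18 at 2 hours, 3 days and 14 days against 0 hours (all genes 0.00, -0.02 and 0.03), and 3, 5 and 5 members were called. These are 5.26%, 8.77% and 8.77% of the members, against 3.29%, 13.7% and 10.3% of all genes in the same fits, so at 3 days and 14 days the members were then not called more often than the background. The count of 7 called at 2 hours became 2 when 0 hours replicate 1 or 2 hours replicate 3 was left out, 3 for 2 hours replicate 1 or 2, and 16 for 0 hours replicate 2. Calls over all genes, 197 with every array, moved too, to 139 and 71, to 100 and 103, and to 309 in the same fits. The 9 called at 3 days became 5 when 0 hours replicate 1 was left out and 4 for 3 days replicate 3, while those over all genes, 462, became 298 and 159. At 14 days the 9 became 5 for 0 hours replicate 1 or 14 days replicate 2 or 3, and 4 for 14 days replicate 1, while those over all genes, 353, became 154, 195, 212 and 109. The F-test called 21 members when 0 hours replicate 2 was left out, and its count over all genes in that fit is not given here.

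Array medians lay between 448.4 and 496.4, and Spearman correlations between arrays ran from 0.875 to 0.960 within time points and from 0.802 to 0.940 between them. RNA quality and tissue makeup moved with time as well. The log2 ratio of the 3′ to the 5′ Gapdh control probe set, higher where RNA is degraded, was 1.99 ± 0.29, 1.54 ± 0.46, 0.52 ± 0.50 and 0.21 ± 0.08 at 0 hours, 2 hours, 3 days and 14 days (SD, n = 3 each). With that ratio as a covariate 3, 0 and 0 members were called at 2 hours, 3 days and 14 days against 0 hours, while the calls over all genes came to 108, 4 and 2. Among the 26 called changes, 18 kept at least 70% of their size and 10 were as large or larger. The median share kept was 92% and the lowest -10.6%, and the median member changed by 0.26, 0.16 and 0.27. Ddx3x at 14 days went from 1.35 to 0.63 and Hnrnpll at 3 days from 1.05 to 0.39. The ratio follows time, so its part cannot be told apart from that of time and was not tested. All 18 keratinocyte marker genes with a probe set (of 22 listed) were above the floor at every time point, with summed signal of 89297.6 to 121118 at 0 hours, 123769 to 128603 at 2 hours, 157266 to 168178 at 3 days and 150679 to 257639 at 14 days, which is in keeping with skin. Skeletal muscle was also present: 27 of 32 markers summed to 353748 to 583231 at 0 hours, 312879 to 358031 at 2 hours (with Myh7 and Tnnc1 at the floor), 123027 to 272768 at 3 days and 173406 to 250267 at 14 days. With the mean of the muscle markers in the model 2, 0 and 2 members were called, and 140, 8 and 34 genes in all. Of the 26 called changes, 24 kept at least 70% of their size, with a median of 87.6%. Macrophage and monocyte markers (23 of 24) summed to 19526.2 to 23612, 15498.2 to 29158.3, 53362.1 to 83669.6 and 30148.5 to 33033 in the same order, with Aif1, Itgam and Msr1 at the floor on all arrays of 0 hours, 2 hours and 14 days, and Fcgr3 on all arrays of 2 hours, 3 days and 14 days. Fibroblast markers (13 of 14) summed to 135801 to 153802, 85751.4 to 93970.8, 87182.8 to 104921 and 101750 to 130993, with Pdgfrb at the floor at 2 hours. The part of macrophages, keratinocytes and fibroblasts in the members' changes was not tested. In whole skin, fewer cells of a type and less RNA per cell cannot be told apart.

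**Figure D2:**
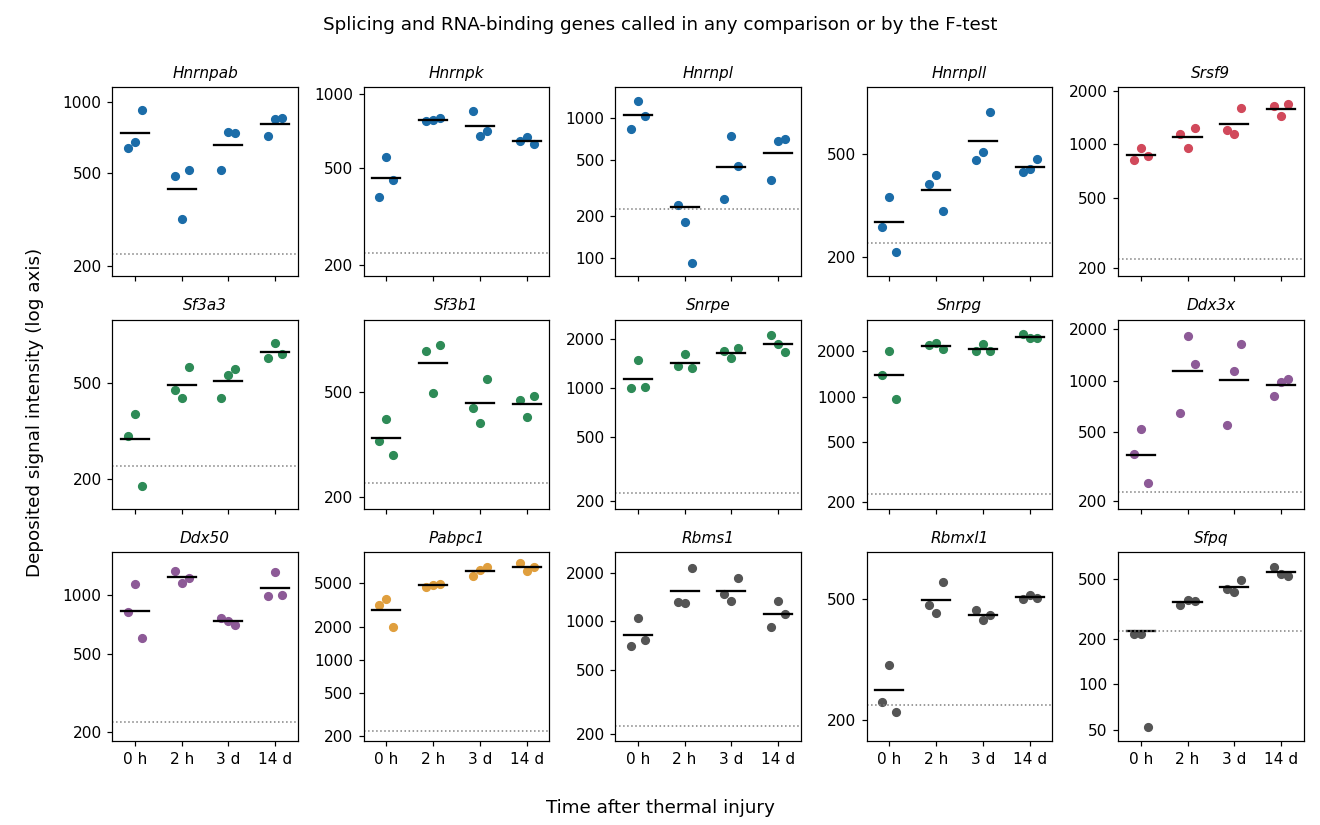
Deposited signal (y axis, log scale) on each of the 12 arrays (points) by time after injury (x axis) for the 15 members called in any comparison or by the F-test. Bars are means of the floored log2 signals and dotted lines the floor of 225. Hnrnpl has 2 of its 3 arrays under the floor at 2 hours, while the points of Pabpc1, Rbmxl1 and Sfpq at 3 days and 14 days all lie above those at 0 hours.

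Among the hnRNP genes, 10 of 16 were tested, and they held both the largest fall and several rises. Rises were 10%, 20% and 10% of them at 2 hours, 3 days and 14 days, against 4%, 8.89% and 6.9% of all genes. Those at 3 days and 14 days include Hnrnpll, which entered the tests only through later groups. Falls were 10% at 2 hours and at 3 days, against 1.67% and 4.4%, in each case 1 gene. Hnrnpl, which binds CA repeats in pre-mRNA and controls exon inclusion, had 1 probe set naming it alone. Its signal was 841.1, 1335 and 1044.9 at 0 hours, 241.4, 180 and 92.1 at 2 hours, 265.4, 747.2 and 452.6 at 3 days, and 362.6, 687 and 711.1 at 14 days. Every array of 2 hours, 3 days and 14 days was thus below the lowest array of 0 hours. Hnrnpl fell at least 4.57-fold at 2 hours (log2 change -2.19 ± 0.33 SE, limma adjusted p = 0.00162), a lower bound since 2 of the 3 arrays were at the floor. It was still 2.36-fold lower at 3 days (-1.24 ± 0.33, adjusted p = 0.0246), and at 14 days the change of -0.91 ± 0.33 was not called (adjusted p = 0.0921). The difference at 3 days against 2 hours was at least 0.96 ± 0.33, with 2 arrays of 2 hours at the floor, and was not called either (adjusted p = 0.0925). It was called with the floor at the 10th percentile (1.39, adjusted p = 0.0368) and without 3 days replicate 1 (1.34, adjusted p = 0.0151). The fall at 2 hours held without each array in turn (highest adjusted p = 0.0119) and with either covariate. That at 3 days was lost without 0 hours replicate 2 or 3 or 3 days replicate 1 or 3 (adjusted p 0.0516 to 0.0831).

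Hnrnpll, a paralogue of Hnrnpl known as a splicing regulator of CD45 in lymphocytes, went the other way. Its signal was 260.7, 341.9 and 209.2 at 0 hours, 384.5, 415.9 and 300.2 at 2 hours, 475.9, 513.3 and 731 at 3 days, and 426.7, 438.8 and 481.7 at 14 days. The 3 days and 14 days arrays were all above those of 0 hours, and those of 2 hours overlapped them. Hnrnpll rose by 1.05 ± 0.22 at 3 days (2.07-fold, limma adjusted p = 0.00643), and this held without each array in turn. The rise of 0.72 ± 0.22 at 14 days (adjusted p = 0.0498) was lost without any of 9 arrays: 0 hours replicates 1 and 3, each array of 2 hours, 3 days replicate 2 and each array of 14 days (0.0547 to 0.126). With the Gapdh ratio as a covariate it turned to -0.08. As 1 array of 0 hours was at the floor, both rises are lower bounds.

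Hnrnpk, which binds C-rich RNA and DNA, had signals of 379.9, 552.3 and 447.8 at 0 hours, 780.7, 782.2 and 800.2 at 2 hours, 853.7, 675.9 and 707.7 at 3 days, and 642.2, 670.4 and 626.7 at 14 days. None of the later arrays overlapped those of 0 hours, and the 3 arrays of 2 hours were nearly alike. Hnrnpk rose 1.73-fold at 2 hours (0.79 ± 0.18, limma adjusted p = 0.0218) and 1.63-fold at 3 days (0.71 ± 0.18, adjusted p = 0.0197), with 0.51 ± 0.18 at 14 days (adjusted p = 0.0863, not called). The first call was lost without 0 hours replicate 1 or any array of 2 hours (0.0605 to 0.0815), the second without 0 hours replicate 1 or 3 days replicate 1 or 3 (0.0593 to 0.0758). Hnrnpab, a factor that shuttles between nucleus and cytoplasm, was called only by the F-test (adjusted p = 0.0373). Its signals of 482.6, 318.1 and 512.4 at 2 hours lay below the 638, 680.5 and 928.9 of 0 hours, with 515.5, 744.5 and 736.9 at 3 days and 721.8, 846 and 858.9 at 14 days. The change at 2 hours, -0.79 ± 0.23, missed the threshold (adjusted p = 0.0619).

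The other hnRNP genes tested were not called. Hnrnph1, which binds G-rich runs, changed by 0.62, 0.20 and 0.37 at 2 hours, 3 days and 14 days against 0 hours. Hnrnpd, also known as AUF1 and a regulator of AU-rich messages, changed by 0.01, 0.44 and 0.49. Hnrnpa2b1, Hnrnpdl, Hnrnpm and Hnrnpul2 stayed between -0.14 and 0.50 in these comparisons. Signals over the 12 arrays ran from 2626.5 to 3912.5 for Hnrnpa2b1 (median 3368.65), from 1705.7 to 3038.1 for Hnrnpdl (2319.9) and from 1250.9 to 2582.6 for Hnrnph1 (1996.75).

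Of 9 SR protein genes 6 were tested, and 1 rose, at 14 days (16.7%, against 6.9% of all genes). Srsf9, an SR protein that takes part in splice site choice, had signals of 819.1, 959.1 and 854.1 at 0 hours, 1140.7, 955.8 and 1232.5 at 2 hours, 1204.1, 1147 and 1591.3 at 3 days, and 1647.8, 1443.1 and 1675.7 at 14 days. Only an array of 2 hours overlapped the 0 hours range. Srsf9 rose 1.81-fold at 14 days (0.86 ± 0.19, limma adjusted p = 0.0114), a call lost without 14 days replicate 1 (0.0578), while 0.57 ± 0.19 at 3 days was just outside the threshold (adjusted p = 0.0562). All 6 genes had changes above 0 at 2 hours and at 3 days, none of which was called, where 1898 and 1800 of all 3477 genes had changes above 0. Srsf6 had the largest at 2 hours (0.60 ± 0.25, adjusted p = 0.171), with signals of 1128.2 to 3077 over the 12 arrays. Srsf2 signals ran from 5130.9 to 9210.3 and those of Srsf5 from 1421.3 to 2795.1, and Srsf2, Srsf4 and Srsf5 stayed between -0.04 and 0.43, while Srsf11 changed by 0.57, 0.17 and -0.03 at the 3 later times against 0 hours.

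Core components of the spliceosome (Snrp, Sf3, U2af and Prpf) numbered 26 genes, of which 18 were tested. At 2 hours 1 rose, at 3 days 1 and at 14 days 3 (5.56%, 5.56% and 16.7%, against 4%, 8.89% and 6.9% of all genes), and none fell. Among these, Sf3b1 (at 2 hours) and Sf3a3 (at 3 days and 14 days) entered the tests only through later groups. Sf3a3, a subunit of the SF3A complex of the U2 small nuclear ribonucleoprotein, had signals of 302.8, 373.8 and 187.7 at 0 hours, 468.6, 434.8 and 584 at 2 hours, 434.8, 543.3 and 575.4 at 3 days, and 638.6, 737.8 and 662.4 at 14 days. The arrays of 0 hours lay below all 9 later ones, and the 14 days arrays were above all others. The change at 14 days against 3 days, 0.40 ± 0.21, was not called (limma adjusted p = 0.534). Sf3a3 rose at least 1.75-fold at 3 days (0.80 ± 0.21, limma adjusted p = 0.0218) and 2.30-fold at 14 days (1.20 ± 0.21, adjusted p = 0.00347), lower bounds since 1 array of 0 hours was at the floor. The change at 2 hours, 0.74 ± 0.21, was not called (adjusted p = 0.0554). The 14 days call held without each array in turn, and that of 3 days was lost without 0 hours replicate 1 or 3 or 3 days replicate 2 or 3 (0.05 to 0.105).

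Sf3b1, the largest subunit of the SF3B complex that holds U2 at the branch point, rose at 2 hours. Its signals were 325.6, 394.8 and 287.1 at 0 hours, 711.7, 493.6 and 751 at 2 hours, 435, 379.4 and 560.5 at 3 days, and 466, 401.9 and 481 at 14 days. The 2 hours arrays did not overlap those of 0 hours, and an array of 3 days did. The rise was 1.93-fold (0.95 ± 0.22, limma adjusted p = 0.0218), against changes of 0.44 and 0.43 at 3 days and 14 days. It was lost without 0 hours replicate 1 or 3 or 2 hours replicate 1 or 3 (adjusted p 0.0507 to 0.104). That it differs from 3 days was not shown (3 days against 2 hours -0.50 ± 0.22, adjusted p = 0.165).

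Snrpe and Snrpg encode Sm proteins, which form the ring around spliceosomal small nuclear RNAs. Snrpg had signals of 1384.7, 2019.5 and 973.7 at 0 hours, 2195.5, 2284.7 and 2067.8 at 2 hours, 2020.5, 2237.2 and 1998.9 at 3 days, and 2603.8, 2475.2 and 2440.7 at 14 days. The 14 days arrays were above all others, but the change against 3 days, 0.27 ± 0.22, was not called (limma adjusted p = 0.787). Snrpg rose 1.79-fold at 14 days (0.84 ± 0.22, limma adjusted p = 0.0276), with 0.64 and 0.58 at 2 hours and 3 days, neither called. Snrpe, at 988.9, 1466.9 and 1007 at 0 hours, 1360.8, 1606.1 and 1316.1 at 2 hours, 1681.2, 1508.6 and 1738.9 at 3 days, and 2090.8, 1848.3 and 1652.3 at 14 days, rose 1.64-fold at 14 days (0.71 ± 0.20, adjusted p = 0.0329). Its 14 days arrays were above those of 0 hours and overlapped those of 3 days. Both 14 days calls were lost without 0 hours replicate 1 or 3 or any array of 14 days (0.0618 to 0.0967 for Snrpg and 0.0517 to 0.134 for Snrpe). The Snrpe probe set is of the type that can match a family of similar sequences.

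Other spliceosome genes were not called. U2af1, the small subunit of the factor that reads the 3′ splice site, changed by 0.79 ± 0.27, 0.51 ± 0.27 and 0.74 ± 0.27 at 2 hours, 3 days and 14 days against 0 hours (limma adjusted p = 0.0945, 0.215 and 0.087). Sf3b6, which contacts the branch point, changed by 0.72, 0.34 and 0.41. Snrpb, an Sm protein, was on the low side at each time (-0.41, -0.46 and -0.15), with signals of 7055.4 to 13331.1 over the 12 arrays. Sf3b5 (-0.19, 0.06 and 0.01), U2af2 (3369.2 to 5647.5 in signal) and Sf3a2 (2399.1 to 3333.2) changed by under 0.2 in each comparison against 0 hours. Prpf6, Prpf8, Prpf38a, Sf3b2, Sf3b3, Snrpc and U2af1l4 stayed between -0.36 and 0.46. Prpf19, a ubiquitin ligase of the spliceosome, had the largest change of any member at 14 days against 3 days (0.59 ± 0.18, adjusted p = 0.108).

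**Figure D3:**
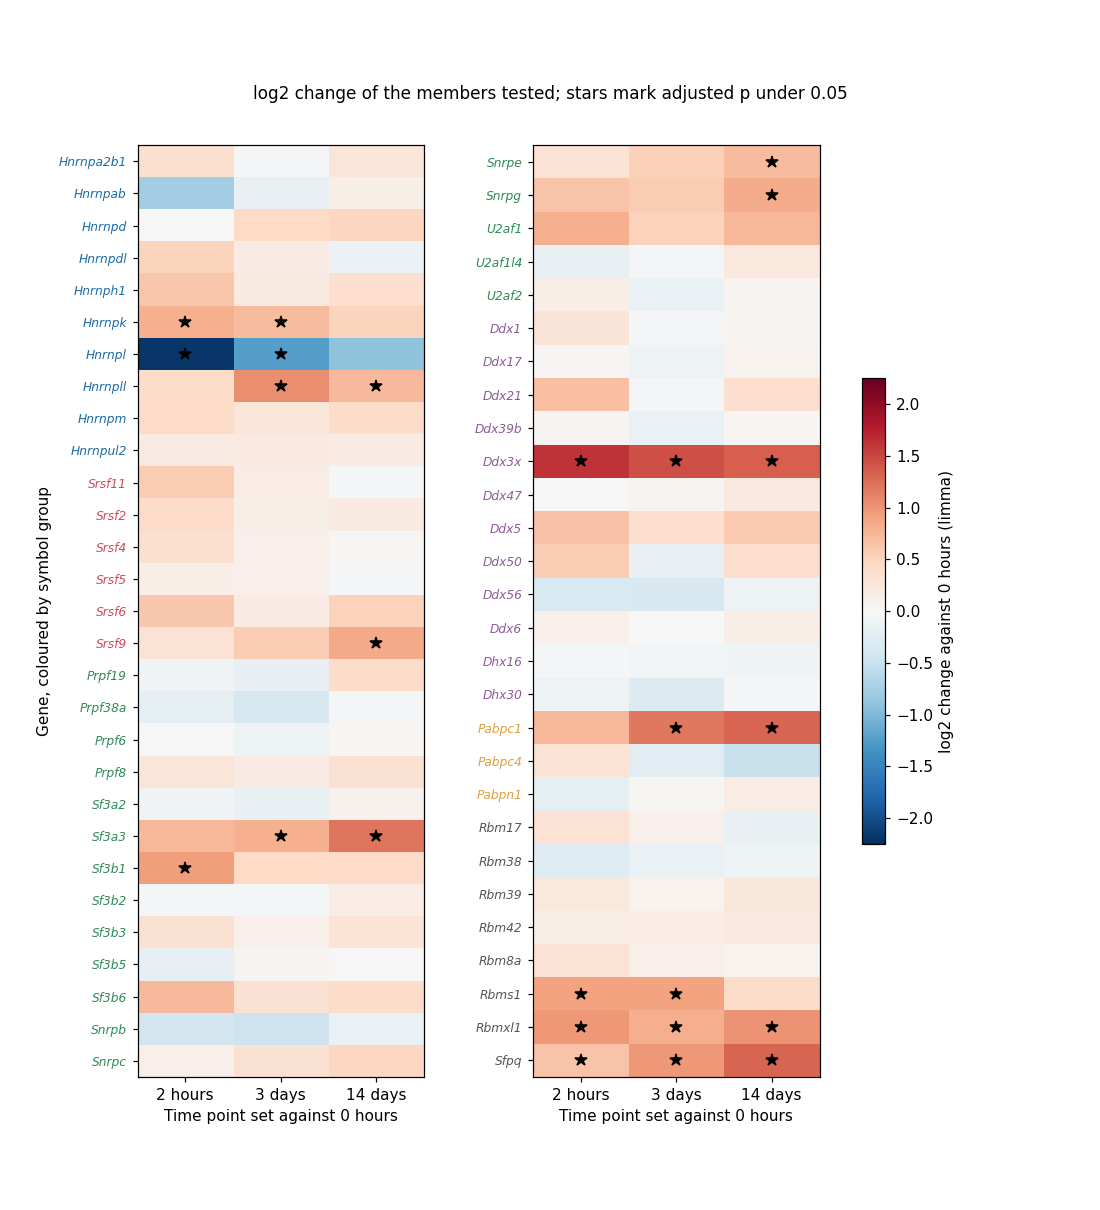
log2 change (colour, limma) of each of the 57 members tested (rows, names coloured by symbol group) at 2 hours, 3 days and 14 days against 0 hours (columns). Stars mark adjusted p under 0.05. Ddx3x, Rbmxl1 and Sfpq carry a star in all 3 columns, and Hnrnpl is the only starred fall.

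Of 24 Ddx and Dhx helicase genes 12 were tested, and 1 of them (8.33%) rose at each time against 0 hours, where 4%, 8.89% and 6.9% of all genes rose. This was Ddx3x, an X-linked DEAD-box helicase that acts in translation initiation. Its brighter probe set gave 376.8, 520.3 and 255.8 at 0 hours, 651.4, 1805.3 and 1254.3 at 2 hours, 555.2, 1130.6 and 1619 at 3 days, and 814.1, 987.3 and 1026.9 at 14 days. No later array overlapped those of 0 hours, although the arrays of 2 hours and of 3 days differed widely among themselves. Ddx3x rose 3.09-fold at 2 hours (1.63 ± 0.40, limma adjusted p = 0.0279), 2.73-fold at 3 days (1.45 ± 0.40, adjusted p = 0.0262) and 2.54-fold at 14 days (1.35 ± 0.40, adjusted p = 0.0437). The call at 2 hours was lost without 0 hours replicate 1 or 3 or 2 hours replicate 2 or 3 (0.0578 to 0.116), and that at 3 days without 0 hours replicate 1 or 3 or 3 days replicate 2 or 3 (0.0604 to 0.134). The call at 14 days was lost without any of 7 arrays: 0 hours replicates 1 and 3, 2 hours replicate 3, 3 days replicate 2 and the 3 arrays of 14 days (0.0571 to 0.122). It was also lost with quantile normalization, median scaling and the floor at the 10th or the 40th percentile. With no filter none of the Ddx3x calls held (limma adjusted p = 0.116, 0.115 and 0.147 in order of time). This probe set too is of the family type, and near-identical copies of Ddx3x exist in the mouse, so its signal may not be of Ddx3x alone.

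Ddx50, a nucleolar helicase, was called between later time points only. Its signals were 821.5, 1140.5 and 604.2 at 0 hours, 1327.3, 1153.4 and 1229 at 2 hours, 761.5, 742.2 and 704.3 at 3 days, and 993.9, 1316.2 and 997.7 at 14 days. The arrays of 3 days lay below every array of 2 hours and within the range of 0 hours. Ddx50 fell 1.68-fold at 3 days against 2 hours (-0.75 ± 0.22, limma adjusted p = 0.0477), and the call was lost without any of the 9 arrays of 2 hours, 3 days or 14 days (0.0548 to 0.169). Ddx21, its paralogue, had a like course that was not called (-0.69 ± 0.24 at 3 days against 2 hours, adjusted p = 0.095). Ddx5, a coactivator and splicing helicase, changed by 0.66, 0.39 and 0.59 at the 3 later times against 0 hours, and Ddx56, which acts in ribosome assembly, by -0.34, -0.36 and -0.12. Signals of Ddx5 ran from 768.3 to 1923.7, of Ddx17 from 1435.2 to 2600.6 and of Ddx39b from 2334.4 to 3114.3. Ddx1, Ddx6, Ddx17, Ddx39b, Ddx47, Dhx16 and Dhx30 stayed between -0.31 and 0.30 in all comparisons against 0 hours.

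All 3 poly(A)-binding protein genes were tested, and 1 rose at 3 days and at 14 days (33.3% each, against 8.89% and 6.9% of all genes). Pabpc1, the main cytoplasmic form, which joins the tail to translation initiation, had signals of 3175.8, 3579 and 2005.3 at 0 hours, 4621.5, 4823.3 and 4863.1 at 2 hours, 5755.1, 6643.8 and 6990.3 at 3 days, and 7707.5, 6458.9 and 7001.1 at 14 days. Each later array was above all those of 0 hours, and those of 3 days and 14 days above all those of 2 hours. It rose 2.27-fold at 3 days (1.18 ± 0.21, limma adjusted p = 0.00212) and 2.48-fold at 14 days (1.31 ± 0.21, adjusted p = 0.00198), and both calls held without each array in turn. The change of 0.75 ± 0.21 at 2 hours was just outside the threshold (adjusted p = 0.0514). That of 0.43 ± 0.21 at 3 days against 2 hours was not called (adjusted p = 0.215). Pabpc4, another cytoplasmic form, differed by 0.30, -0.24 and -0.50 at the 3 times (1.41-fold lower at 14 days, adjusted p = 0.162, signals 834.7 to 1917.1). Pabpn1, the nuclear form, differed by -0.20, 0.03 and 0.17 (signals 1639.2 to 2609.8).

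Of the 15 Rbm and Sfpq genes 8 were tested, and 3 rose at 2 hours, 3 at 3 days and 2 at 14 days (37.5%, 37.5% and 25%, against 4%, 8.89% and 6.9% of all genes). Sfpq and Rbmxl1, among these at each time, had no array of 0 hours above the filter. They entered the tests only through later groups, so these shares rest largely on genes admitted where they were high. Sfpq, a paraspeckle protein that acts in splicing and transcription, had signals of 214.9, 214.9 and 52.5 at 0 hours, 336.3, 366.2 and 358.3 at 2 hours, 434.3, 409.7 and 497.1 at 3 days, and 608, 544.3 and 524.5 at 14 days. The 4 groups did not overlap, and the signals stood higher at each later time. Neither step after 2 hours was called: 0.33 ± 0.16 at 3 days against 2 hours (limma adjusted p = 0.217) and 0.32 ± 0.16 at 14 days against 3 days (adjusted p = 0.498). All 3 arrays of 0 hours were under the floor, so the rises are bounds: at least 1.57-fold at 2 hours (0.65 ± 0.16, limma adjusted p = 0.0328), 1.98-fold at 3 days (0.98 ± 0.16, adjusted p = 0.00131) and 2.48-fold at 14 days (1.31 ± 0.16, adjusted p = 0.000295). The last 2 calls held without each array in turn. With the floor at the 40th percentile, above every 0 hours signal of this gene, the changes at 2 hours and 3 days shrank to 0.0073 and 0.30 and were not called (adjusted p = 0.997 and 0.215). The first was lost without 0 hours replicate 1 or 3, any array of 2 hours or 3 days replicate 2 (0.0505 to 0.111).

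Rbmxl1, a retrocopy-derived relative of Rbmx, an RNA-binding protein that takes part in splicing, rose at all 3 times. Its signals were 229.5, 304.4 and 213.9 at 0 hours, 475.2, 450.7 and 568.9 at 2 hours, 458.5, 425.6 and 443.9 at 3 days, and 498.3, 515.8 and 501.5 at 14 days. Each later array was above those of 0 hours, and the later time points overlapped each other in part. The rises were at least 1.98-fold (0.98 ± 0.18, limma adjusted p = 0.00485), 1.77-fold (0.82 ± 0.18, adjusted p = 0.00838) and 2.02-fold (1.01 ± 0.18, adjusted p = 0.00347), with 1 array of 0 hours at the floor, and all held without each array in turn. With the floor at the 40th percentile, above its 0 hours signals, they shrank to 0.46, 0.29 and 0.49 and none was called (adjusted p = 0.106, 0.233 and 0.0613). Rbmxl1 and Rbmx share much of their sequence, so which of them the probe set reports is uncertain. The brighter probe set naming Rbmx alone was below the filter and not tested. Its mean signals were 344.9 ± 117.7, 247.6 ± 56.7, 282.2 ± 45.2 and 209.0 ± 82.8 (SD) at 0 hours, 2 hours, 3 days and 14 days. The other was under the floor on all 12 arrays.

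Rbms1, which binds single-stranded nucleic acid, had signals of 705.3, 1056.9 and 764 at 0 hours, 1323.3, 1294.6 and 2163.3 at 2 hours, 1471.1, 1349.5 and 1858.9 at 3 days, and 926.8, 1332.1 and 1108.9 at 14 days. The arrays of 2 hours and 3 days were above all those of 0 hours, and those of 14 days overlapped them. Rbms1 rose 1.87-fold at 2 hours (0.90 ± 0.24, limma adjusted p = 0.044) and 1.86-fold at 3 days (0.90 ± 0.24, adjusted p = 0.025), with 0.42 ± 0.24 at 14 days (adjusted p = 0.28). The first call was lost without any of 9 arrays: 0 hours replicates 1 and 3, the 3 arrays of 2 hours, 3 days replicates 1 and 2 and 14 days replicates 2 and 3 (0.0516 to 0.197). The second was lost without 0 hours replicate 1 or 3 or 3 days replicate 3 (0.06 to 0.122). Rbm8a, a core protein of the exon junction complex, Rbm17, Rbm38, Rbm39 and Rbm42 stayed between -0.29 and 0.33 in the comparisons against 0 hours, with signals of 676.6 to 1837.6 for Rbm38 and 1146.9 to 1543.1 for Rbm42.

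More than 1 probe set named 19 of the members, and for 7 of these more than 1 was above the filter. Fitted each by itself over 3815 probe sets, 5 of these 14 probe sets rose at 2 hours (3.96% of all did), 3 at 3 days (9.07%) and 3 at 14 days (7.73%). Ddx3x was called on both at 2 hours and at 14 days, the dimmer probe set changing by at least 1.24 ± 0.28 (limma adjusted p = 0.0181) and 1.00 ± 0.28 (adjusted p = 0.0305), and on 1 at 3 days, where the dimmer gave 0.65 ± 0.28 (adjusted p = 0.128). With 1 array of 0 hours at the floor, these are lower bounds. Its signals were 201.5, 455.9 and 350.2 at 0 hours and 760.1, 1003.3 and 623.9 at 2 hours, which did not overlap. Srsf2, an SR protein that binds exonic enhancers, differed between its probe sets. The dimmer had 423.7, 754 and 565.4 at 0 hours, 1124.9, 977.5 and 991.8 at 2 hours, 836.8, 737 and 1095.7 at 3 days and 951.1, 1060.9 and 889.9 at 14 days, and rose by 0.86 ± 0.22 at 2 hours (adjusted p = 0.0372) and 0.77 ± 0.22 at 14 days (adjusted p = 0.038). The brighter gave 0.43, 0.13 and 0.20 at the 3 times, none called, and a test of the difference between probe sets was not run.

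**Figure D4:**
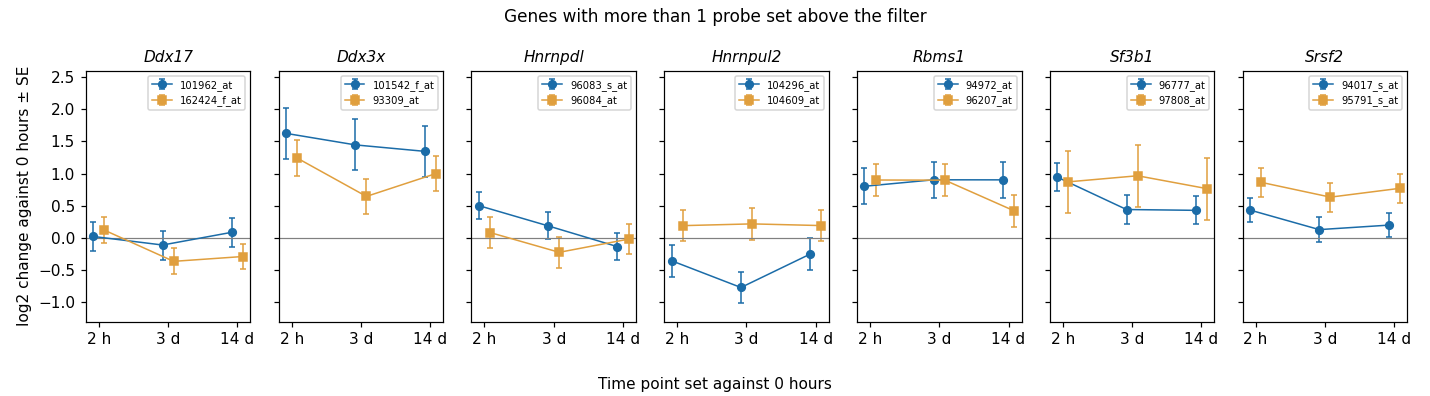
log2 change against 0 hours ± SE (y axis, limma on each probe set by itself) at 2 hours, 3 days and 14 days (x axis) for the 7 members with more than 1 probe set above the filter. Both Ddx3x probe sets lie above 0 throughout, the Srsf2 probe sets differ in size, and those of Hnrnpul2 lie on opposite sides of 0.

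For the other such genes the probe sets gave these values. Rbms1 rose at 3 days on both (0.90 ± 0.28 and 0.90 ± 0.25), and its dimmer probe set stood at 0.90 at 14 days (adjusted p = 0.0509), where the brighter was at 0.42. At 2 hours the dimmer gave 0.80 ± 0.28 and was not called (limma adjusted p = 0.107), with arrays that overlapped those of 0 hours. The dimmer values are lower bounds, with 1 array of 0 hours at the floor. The dimmer Sf3b1 probe set gave 0.87, 0.97 and 0.77, each ± 0.48 and not called and lower bounds, with all 3 arrays of 0 hours among the 5 at the floor. Hnrnpul2 was at -0.77 ± 0.25 at 3 days on 1 probe set (adjusted p = 0.0519) and at 0.22 ± 0.24 on the other. No probe set of Ddx17 or Hnrnpdl was called. The other 3 probe sets of Sfpq were under the floor on all 12 arrays, so its rise rests on 1 probe set.

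Below the filter stood 36 members, which were not tested: 12 Ddx and Dhx, 8 spliceosome, 7 Rbm, 6 Hnrnp and 3 Srsf genes. Ddx41, Ddx51, Dhx36, Hnrnpc, Prpf39, Prpf4b and Rbm6 were under the floor on all 12 arrays with every probe set. The rest were Ddx18, Ddx19b, Ddx24, Ddx27, Ddx52, Ddx54, Dhx9, Dhx15, Dhx40, Hnrnpa1, Hnrnph2, Hnrnph3, Hnrnpr, Hnrnpu, Prpf31, Prpf38b, Rbm14, Rbm15, Rbm18, Rbm25, Rbms2, Rbmx, Sf3a1, Snrpa1, Snrpb2, Snrpd3, Srsf1, Srsf3 and Srsf10. A dim probe set says little of a gene's level, as Hnrnpc and Hnrnpa1 are abundant in most cells.

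A list of 129 further genes for splicing and RNA binding, outside the symbol rule, was set beside them. Of these 86 had a probe set and 55 were tested: 3 rose and 1 fell at 2 hours, 3 rose and 1 fell at 3 days, and 3 rose at 14 days. The 5.45% that rose at each time stand beside 4%, 8.89% and 6.9% of all genes, near or below the background. Rnps1, an exon junction protein, rose at each of these times (1.41, 1.29 and 1.48 on the log2 scale), and Rbpms rose at 2 hours and 3 days (1.13 and 1.40). Qk rose at 2 hours (0.80), Lsm2, a protein of the U6 particle, at 3 days (0.73), and Caprin1 (0.74) and Dek (0.72) at 14 days. Cirbp, the cold-inducible RNA-binding protein, fell at 2 hours (-0.82) and Rbfox2, a tissue-specific splicing regulator, at 3 days (-1.18). Ybx3 fell at 3 days against 2 hours (-0.78) and Rbpms at 14 days against 3 days (-0.81). The median of the 55 was 0.21, 0.09 and 0.25 at 2 hours, 3 days and 14 days against 0 hours, beside 0.30, 0.11 and 0.23 for the members, and the F-test called 4 (7.27%).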

How the data were processed

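For each array the authors deposited 1 linear intensity for each of 7275 probe sets, of which 27 are controls. Their scaling, software and choice of probe sets are not stated in the sources used here. The number of arrays, 3 a group, limits the precision. Groups and replicate numbers are from the sample labels. Probe sets were named through the platform annotation, updated through RefSeq identifiers (0 symbols changed). The 697 that name several genes or none were left out. Intensities were taken as deposited, floored at 225.375, log2-transformed and filtered (above 475.55 on at least 3 arrays), and for each gene the probe set with the highest mean was used. limma 3.58.1 (R 4.3.3) was fitted to all 12 arrays without a block, with 8 residual and 6.64 prior degrees of freedom and Benjamini-Hochberg adjustment over 3477 genes. The fit was tested on simulated data. Promoter sequences were read and figures drawn in Python 3.11.15 with pandas 2.3.3 and matplotlib 3.10.9.

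The text names each member called in any comparison or by the F-test, each with several probe sets, the 3 brightest of each symbol group, and the largest rise and fall of each symbol group in each comparison. Genes of the further list are named where called. The members and all gene lists were chosen with earlier results of these data known. The alternatives were quantile normalization, median scaling, a floor at the 10th or the 40th percentile, a filter at the 75th percentile or none, each probe set by itself, trended and robust variance, the replicate number as a block, the 2 time points alone, the Gapdh ratio or muscle marker mean as a covariate, and leaving out each array.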

Additional observations from a re-analysis of the deposited data

How the results depend on the processing

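Numbers of members called are given here in the order 2 hours, 3 days and 14 days against 0 hours (7, 9 and 9 as reported), then 3 days against 2 hours (1). With the Gapdh ratio as a covariate they were 3, 0, 0 and 0, and with the muscle marker mean 2, 0, 2 and 0. Calls over all genes in the first 3 comparisons came to 108, 4 and 2 and to 140, 8 and 34. The F-test called 2 and 5 members in place of 12, and its calls over all genes in the alternative fits are not given here. Fits on the 2 time points alone gave 1 and 3 at 2 hours and 3 days, with 63 and 216 over all genes. A filter at the 75th percentile gave 4 and 5 at 3 days and 14 days, with 345 and 278 over all genes. It left 34 members tested, with all 11 calls of single members still tested kept. Quantile normalization gave 0 at 3 days against 2 hours. Leaving out each array in turn gave 2 to 16, 4 to 11, 4 to 12 and 0 to 1, with 0 to 0 at 14 days against 3 days and 8 to 21 for the F-test. Over all genes the same fits called 71 to 309 at 2 hours and 159 to 552 at 3 days against 0 hours. The covariates follow time and cannot be told apart from it, and both took calls from all genes too. With either, most of the called changes kept at least 70% of their size, and the cause was not tested. Without 0 hours replicate 3 the median log2 change of the members at 3 days against 0 hours turned to -0.0055, with a highest value of 0.27 without 0 hours replicate 2, and with the Gapdh covariate Hnrnpll at 14 days turned to -0.0765 (limma adjusted p = 0.995). Of 26 calls of single members, 10 held in all 12 fits that left out an array. Median scaling kept 24, the lower floor 23, the higher floor 18, no filter 17, trended variance 24 and quantile normalization 22. Fewest were kept with the 2 time points alone (11), the muscle covariate (4) and the Gapdh covariate (3). The labels do not say what the replicate numbers stand for. Of 18 same-numbered pairs, 2 correlated over 0.1 (median -0.066), which with 3 arrays a group cannot exclude pairing. With the replicate block 5, 9, 9 and 1 members were called, with 148, 412 and 317 over all genes in the first 3 comparisons. They were not all the same members: Hnrnpl was gained at 14 days (limma adjusted p = 0.0493) and at 3 days against 2 hours (0.0461), and Hnrnpll at 14 days (0.0711), Rbms1 (0.0516) and Sfpq (0.0593) at 2 hours and Ddx50 (0.0536) were lost. The array signals have no detection calls, so the floor stands in for background, and the higher floor of 361 lies above every 0 hours signal of Sfpq and Rbmxl1, which shrinks their changes and takes all 3 calls of Rbmxl1 and those of Sfpq at 2 hours and 3 days.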

Other observations

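Besides the 117 probe sets that name a member alone, 9 name a member together with other genes and were left out of the tests. The brighter of those for Hnrnpa3 and Gm6793 had signals of 1613.2, 2738.8 and 1636.3 at 0 hours and 3311, 3310.5 and 3709.7 at 2 hours. It had 4417.8, 3710.4 and 4566.5 at 3 days and 4893.4, 4779.4 and 3775.4 at 14 days. Every later array of this probe set was above those of 0 hours. The dimmer, at 26.9 to 162.8, was under the floor on every array. That for Rbm3, a cold-inducible RNA-binding protein, and its pseudogene had 1408.1, 2236.3 and 1471.9 at 0 hours, 2157.4, 2518.7 and 2395.8 at 2 hours, 3336.9, 3163.8 and 3770.2 at 3 days, and 4109.1, 2765.8 and 2737.2 at 14 days. Its 3 days and 14 days arrays were all above those of 0 hours, and those of 2 hours overlapped them. On the probe set for Snrpa every later array lay within the range of 0 hours (651.1 to 1093.4). For Snrpd2 the arrays of each later time overlapped those of 0 hours (1868.7 to 2549.8). The same held for Rbm10 and for the brighter probe set of Hnrnpa1. The dimmer of Hnrnpa1 and that of Snrpd1 were under the floor on every array. Which of the named genes gave the signal cannot be told apart.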
